A study of Homo sapiens with 6 samples.

Results

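A set of 54 genes of mitosis and of the mitotic spindle was followed on 6 expression arrays of MDA-MB-231, a human triple-negative breast cancer cell line. The genes were listed by name, and a probe was taken for a member when the transcript accession that the array gives for it belongs to that gene in RefSeq. This found 68 probes for 53 of the 54 genes, out of 21743 genes matched on the arrays. PLK1 had no matched probe and was not analysed here. All 53 matched members were tested, and 49 of them were well above background on all 6 arrays. The list of members, and a wider list used below, were chosen with earlier results of these data known. Shares of members beside shares of all genes therefore describe these 6 arrays and are no test of an excess. The cells had received, by transfection, a precursor of hsa-miR-205-5p, a precursor of hsa-miR-214-3p or a scrambled sequence as control, and their total RNA was taken 72 h later, with 2 arrays for each group. All 3 groups were transfected, the control included. Each group is a transient transfection of 1 cell line, and no label says whether the replicates were separate cultures, so the p-values measure only the spread between these samples. Values are the background-subtracted signal of a probe on the log2 scale minus the 75th percentile of its array, here called the normalized log2 signal. Levels of different probes are not comparable, so members are compared between groups within a probe. Medians of the signal over members and sums over markers are compared only between arrays with the same probes. Brighter probes weigh more in the sums.

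A dividing cell enters mitosis when cyclins switch on the kinase CDK1, builds a spindle of microtubules, and attaches each chromosome to it through the kinetochore. The spindle checkpoint holds the cell until every kinetochore is attached, after which CDC20 starts the destruction of securin and cyclin B, separase opens the chromatids, and the midzone guides cytokinesis. Transcripts of these genes rise together late in the cell cycle under the transcription factors FOXM1 and MYBL2 (B-Myb), and their joint level is a common measure of proliferation in tumors. A miRNA pairs with transcripts mainly through its seed, bases 2 to 8 of the mature strand.

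Both mature miRNAs are shown because they distinguish the transfected groups, with the seed in capitals and the sequence as RefSeq lists it on GRCh38.p14. hsa-miR-205-5p lies at chr1:209432166-209432187 on the + strand and hsa-miR-214-3p at chr1:172138816-172138837 on the - strand. Each is 22 bases long, and their seeds differ. The shorter names miR-205-5p and miR-214-3p are used from here on.
hsa-miR-205-5p: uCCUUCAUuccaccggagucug
hsa-miR-214-3p: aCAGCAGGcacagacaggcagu

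With miR-205-5p, nearly all mitosis and spindle genes had a lower mean than in the scrambled control. Of the 53 members, 14 were called lower and 0 higher at an adjusted p under 0.05 and at least 2-fold (limma, Benjamini-Hochberg over the kept probes). That is 26.4% of the members, beside 7.99% of all 11974 genes tested called lower and 4.78% called higher. The called members were FOXM1, KIF20A, AURKA, AURKB, KIF4A, BUB3, TPX2, CDC20, MYBL2, NCAPH, RACGAP1, CDC25B, NCAPG and ESPL1. For NCAPH, neither miR-205-5p array was well above background and the bound was at least 1.42-fold, so the fold limit was met by its measured value and not by its bound. Leaving out such calls, a count added after seeing the data, gave 13 members (24.5%), beside 7.05% of all genes. The median log2 fold change of the members was −0.73, whereas that of all genes was 0.08, and 51 of 53 members lay below 0, as did 45.4% of all genes. Without regard to size, 23 members (43.4%) passed the adjusted p as lower, beside 11.3% of all genes, and 0 as higher, beside 9.81%. The 2 members above 0 (54.6% of all genes) were PTTG1 and SPC25. In 39 members both miR-205-5p arrays lay below both control arrays, which was so for 28.7% of all genes, and in 0 members both lay above (36.6% of all genes). NCAPH, CENPA and TTK were well above background on neither miR-205-5p array and were kept only through the other groups. All of them count as below 0, and NCAPH and CENPA are among the 39. Shares of all genes include such genes as well. At an unadjusted p under 0.05, limma had 34 members lower and 0 higher, beside 18.9% and 20.6% of all genes. The methods' t-test, which uses only the 4 arrays compared, called 0 members after Benjamini-Hochberg adjustment, beside 0% of all genes.

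With miR-214-3p, limma called 0 members lower and 0 higher than in the scrambled control, where 2.03% of all genes were called lower and 1.09% higher. The adjusted p alone, with no fold limit, was also passed by 0 members, beside 2.09% of all genes as lower and 1.21% as higher. At an unadjusted p under 0.05, limma had 4 members lower and 4 higher, where 13.5% of all genes were lower and 10.8% higher. The methods' t-test called 0 after Benjamini-Hochberg adjustment, as it did for miR-205-5p, where it also called 0% of all genes. Its count does not separate the precursors and says nothing particular to the members. The median log2 fold change was 0.12 (all genes −0.01), and the values ran from −0.92 in KIF18A to 1.01 in KIF20A. This median turned to −0.04 under normexp and to −0.05 with scaling to the median, so its sign depended on the processing. Scaling to the median moves all genes by the same amount and leaves their distance from the members as it was. Of the members 34 lay above 0 (49% of all genes) and 19 below (51%). Both miR-214-3p arrays lay above both control arrays in 19 members (27.7% of all genes) and below them in 11 (30.8% of all genes). The 2 control arrays serve both precursors, so their changes against the control share its spread.

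Set directly against miR-214-3p, a comparison whose means use no control array, miR-205-5p had 16 members called lower and 0 higher (limma). That is 30.2% of the members, beside 11.3% of all genes called lower and 9.18% higher. Leaving out calls with a bound under 2-fold, here CENPA, gave 15 members (28.3%), beside 10.2% of all genes. With no fold limit, 29 members (54.7%) passed as lower, beside 16% of all genes, and 0 as higher, beside 17.9%. At an unadjusted p under 0.05, limma had 32 lower and 1 higher, beside 21.3% and 27% of all genes. In 44 members both miR-205-5p arrays lay below both miR-214-3p arrays (34.6% of all genes) and in ZWINT alone above them (45.7% of all genes). Of the 53 members 48 lay below 0 (43.9% of all genes), and the 5 above it (56.1% of all genes) were PTTG1, ZWINT, KIF18A, SMC2 and SMC4. The median log2 fold change was −0.73 (all genes 0.12), with values from −3.37 in TOP2A to 0.57 in ZWINT. The members called in both comparisons of miR-205-5p numbered 11, namely FOXM1, AURKB, AURKA, CDC20, MYBL2, BUB3, KIF4A, TPX2, KIF20A, NCAPG and RACGAP1. That is beside 6.55% of all genes, and both comparisons use the same miR-205-5p arrays. Only against the control were CDC25B, ESPL1 and NCAPH called, and only against miR-214-3p were CCNA2, CDC25C, NEK2, CENPA and TOP2A called. Whether the comparisons differ for these 8 genes was not tested. Both miR-205-5p arrays lay below all 4 other arrays in 37 members (69.8%), among them all 14 called against the control, and in 22.6% of all genes. NCAPH and CENPA, kept only through the other groups, are among these 37, and with TTK among the 44 and the 48. In bulk RNA, fewer cells in mitosis and less RNA per cell cannot be told apart.

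**Figure D1:**
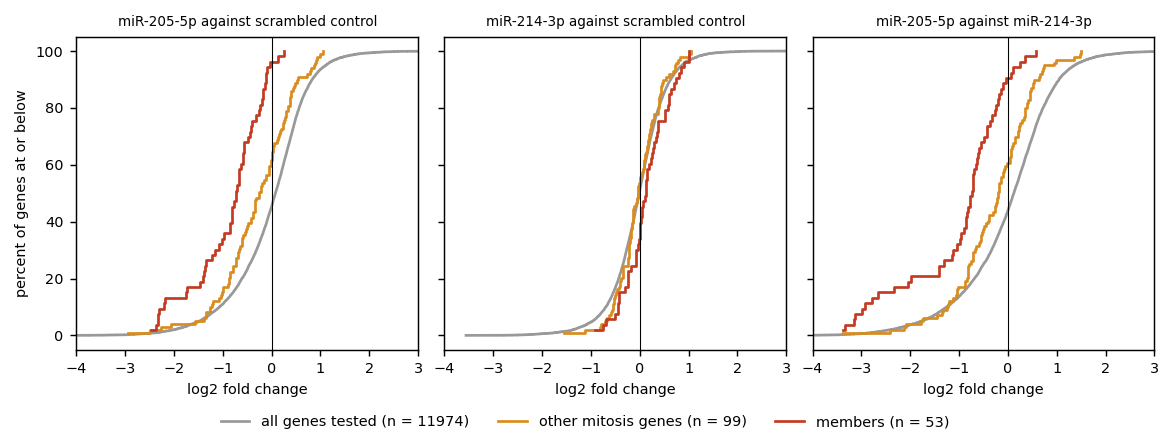
Percent of genes (vertical axis) at or below each log2 fold change (horizontal axis, drawn from −4 to 3) for the 53 members, 99 other mitosis genes and all 11974 genes tested, in each of the 3 comparisons. The curve of the members lies to the left of all genes in both comparisons of miR-205-5p (median −0.73 in each) and near them with miR-214-3p (median 0.12).

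The count depended on scaling, filter and choice of arrays, as given with the shares of all genes in the closing section, and on single arrays. Without miR-205-5p replicate 2, limma called 0 members and 0 of all genes lower against the control, with 11 members and 9.09% of all genes lower at an unadjusted p under 0.05 and at least 2-fold. Without miR-205-5p replicate 1 it called 9 members and 5.64% of all genes. Without 1 or the other miR-214-3p array, which enters this comparison through the shared spread and the choice of probes, it called 4 (AURKB, CDC20, FOXM1 and MYBL2) and 2.77% or 2.43% of all genes. Without scrambled control replicate 1 it called 19 members and 11.6% of all genes. Against miR-214-3p, it called 7 members without miR-205-5p replicate 2 (6.24% of all genes) and 3 without 1 or the other miR-214-3p array (AURKB, CDC20 and FOXM1, beside 2.77% or 1.82% of all genes).

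**Figure D2:**
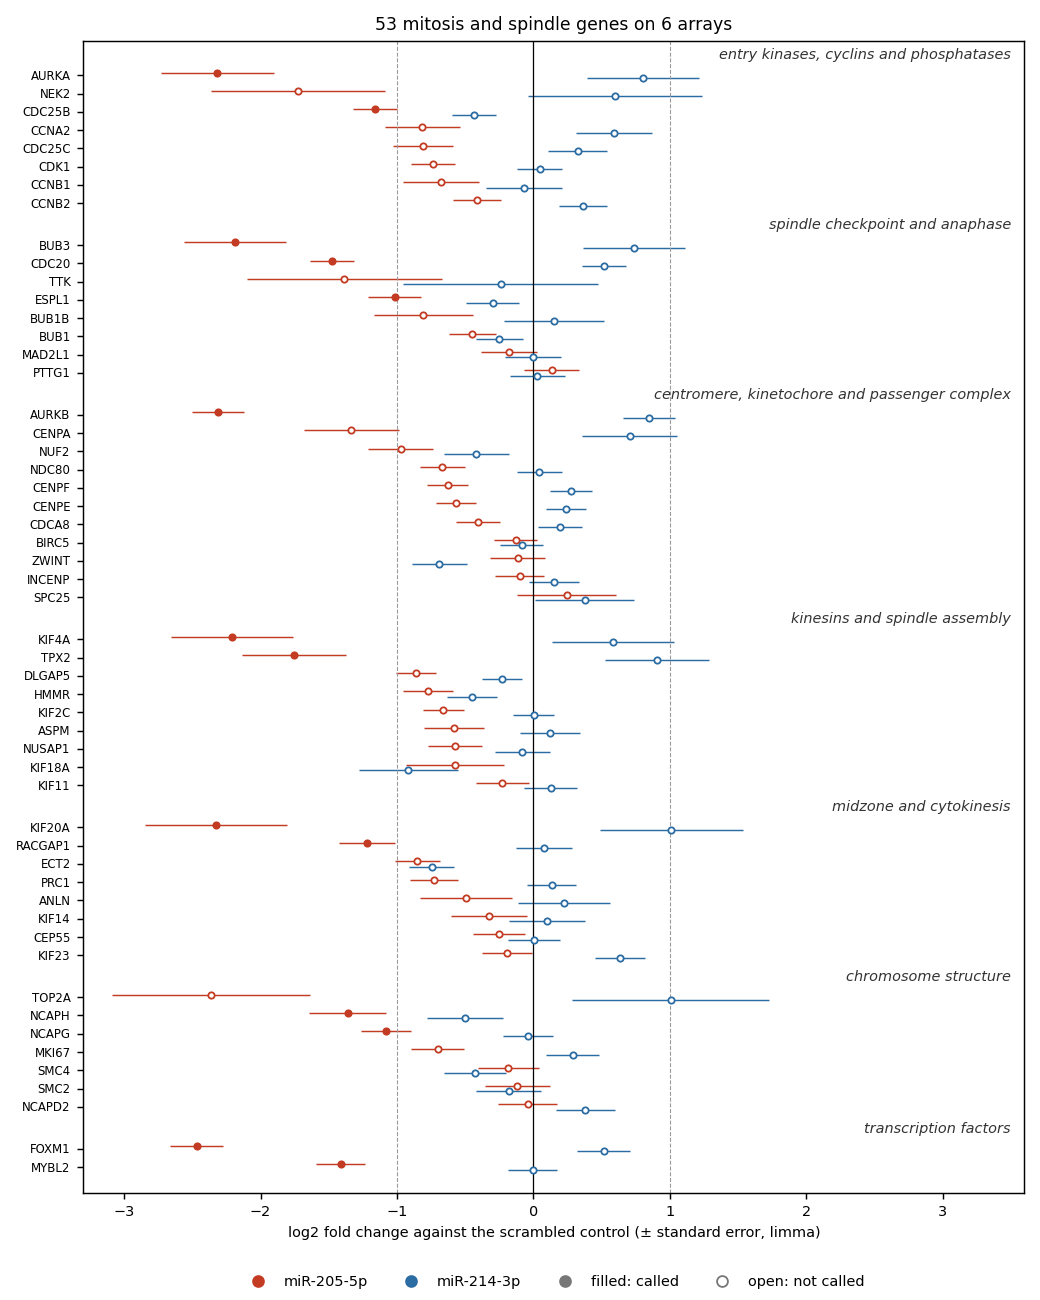
Log2 fold change against the scrambled control with its standard error (horizontal axis) for the brightest probe of each of the 53 members, grouped by role, with miR-205-5p in red and miR-214-3p in blue and filled points for called genes. The 14 filled points are all red and lie between −2.47 (FOXM1) and −1.02 (ESPL1), and dashed lines mark a 2-fold change.

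The counts by role that follow are of few genes each and stand beside the shares of all genes with miR-205-5p, which were 7.99% called lower, 11.3% past the adjusted p as lower, 28.7% with both arrays below both control arrays and 45.4% below 0. Both transcription factors of the set were called. FOXM1, which drives transcription of genes needed for mitosis, had a normalized log2 signal of 2.13 and 1.96 with miR-205-5p, 5.06 and 5.00 with miR-214-3p, and 4.32 and 4.71 in the scrambled control. The miR-205-5p arrays were the lowest and the miR-214-3p arrays the highest, and no groups overlapped. Its log2 fold change with miR-205-5p was −2.47 (standard error 0.19, 5.54-fold lower, adjusted p = 0.00799), the largest fall among the brightest probes of the members. MYBL2, which acts with the MuvB complex on the same kind of promoter, read 1.50 and 1.31 with miR-205-5p, 2.68 and 2.94 with miR-214-3p and 2.90 and 2.74 in the control. The miR-214-3p and control arrays overlapped, and the miR-205-5p arrays lay below both (log2 fold change −1.41 against the control, standard error 0.18, adjusted p = 0.011). Against miR-214-3p, FOXM1 had a log2 fold change of −2.99 and MYBL2 of −1.41 (adjusted p = 0.00383 and 0.00639).

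Among the kinases, cyclins and phosphatases that start mitosis, 2 of 8 tested members were called lower with miR-205-5p and all 8 had both arrays below both control arrays, with a median of −0.81. AURKA, a centrosome kinase needed to build the spindle, read 1.33 and 1.53 with miR-205-5p, 4.70 and 4.41 with miR-214-3p and 3.14 and 4.36 in the control. Its control arrays were 1.22 apart, with replicate 1 the nearer to miR-205-5p, and both stayed above the miR-205-5p arrays (log2 fold change −2.32, standard error 0.41, adjusted p = 0.021). CDC25B, a phosphatase that activates CDK1, read 3.73 and 3.66 with miR-205-5p, 4.37 and 4.47 with miR-214-3p and 4.75 and 4.96 in the control. All 3 groups were apart and the control was highest (−1.16 with miR-205-5p, standard error 0.16, adjusted p = 0.0129, while miR-214-3p gave −0.44, adjusted p = 0.199). CDC25C, the related phosphatase, read 0.30 and 0.01, then 1.37 and 1.20, then 0.76 and 1.17 in the same order. It was called against miR-214-3p (−1.13, adjusted p = 0.0166) and not against the control (−0.81, adjusted p = 0.0551).

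CCNA2, the cyclin of late S phase and early mitosis, read 3.01 on both miR-205-5p arrays, 4.40 and 4.43 with miR-214-3p and 3.44 and 4.21 in the control. The precursor groups were far apart relative to their spread (−1.41, adjusted p = 0.0178), while the control arrays spread between them (−0.81 against the control, adjusted p = 0.0943). NEK2, a kinase that separates centrosomes, read −1.23 and −0.94, then 1.34 and 1.13, then −0.38 and 1.65 on its brightest probe, which was well above background on 1 of 2 miR-205-5p arrays, so the size of its differences is uncertain. Control replicate 1 lay between the precursors and replicate 2 above the miR-214-3p arrays, and the call was made against miR-214-3p (−2.32, adjusted p = 0.0436) and not against the control (−1.72, adjusted p = 0.115). That call was made in 5 of 10 alternatives of normalization, background, filter, spread and probe averaging, and was lost under normexp, cyclic loess, the percentile over detected probes and both other filters. CCNB1, cyclin B1, has 2 probes of the same transcript. The brighter read 4.76 and 4.68 with miR-205-5p, 5.32 and 5.34 with miR-214-3p and 5.01 and 5.79 in the control, and the dimmer 4.57 and 4.61, 4.97 and 5.13, and 5.64 and 5.51. On the dimmer probe the fall with miR-205-5p passed the adjusted p but not the fold limit (−0.98, adjusted p = 0.0168), and on the brighter one it passed neither (−0.68, adjusted p = 0.143). CDK1 passed the adjusted p at −0.74 (adjusted p = 0.0347), and CCNB2 had −0.42 (adjusted p = 0.15).

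In the checkpoint and anaphase group, 3 of 8 members were called lower with miR-205-5p and 7 lay below 0, with a median of −0.91. CDC20, the activator of the anaphase-promoting complex, read 3.53 and 3.44 with miR-205-5p, 5.48 and 5.47 with miR-214-3p and 4.85 and 5.07 in the control. Replicates were at most 0.22 apart and the 3 groups were in separate ranges (−1.47 against the control, standard error 0.16, 2.78-fold lower, adjusted p = 0.00899, and −1.99 against miR-214-3p, adjusted p = 0.00383). ESPL1, separase, the protease that cuts cohesin, read 3.66 and 3.31, then 4.15 and 4.26, then 4.62 and 4.39 in the same order. It stood just past the fold limit against the control (−1.02, standard error 0.20, adjusted p = 0.0249). BUB3, which carries checkpoint proteins to the kinetochore, was called on its brightest probe (−2.19, standard error 0.38, adjusted p = 0.0192) and not on its other probe, as described with the probes below. For PTTG1, securin, the log2 fold change was 0.13 (adjusted p = 0.656), and for MAD2L1, a checkpoint protein, −0.18 (adjusted p = 0.555). TTK, the kinase at the top of the checkpoint, had −1.39, but its control arrays were 2.05 apart (adjusted p = 0.216). Control replicate 1 (−1.48) lay below miR-205-5p replicate 1 (−1.33), so the groups overlapped. Neither miR-205-5p array showed TTK well above background, and the bound of at least 1.90-fold is between means only. BUB1 and BUB1B had −0.45 and −0.81 (adjusted p = 0.126 and 0.172).

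At the centromere and kinetochore, 1 of 11 members was called lower with miR-205-5p, a share near the 7.99% of all genes, 4 passed the adjusted p and the median was −0.57. AURKB, the kinase of the chromosomal passenger complex, which corrects wrong attachments, read 1.21 and 1.25 with miR-205-5p, 4.40 and 4.38 with miR-214-3p and 3.35 and 3.74 in the control. The 3 groups were far apart, the miR-205-5p arrays lowest and the miR-214-3p arrays highest (−2.31 against the control, standard error 0.19, 4.97-fold lower, adjusted p = 0.00799, and −3.16 against miR-214-3p, adjusted p = 0.00383). The other subunits of that complex were not called on the same arrays, with log2 fold changes of −0.41 in CDCA8, −0.13 in BIRC5 and −0.10 in INCENP (adjusted p = 0.134, 0.58 and 0.714). CENPA, the histone variant that marks the centromere, read −2.24 and −3.19, then −0.89 and −0.46, then −1.29 and −1.47. Neither miR-205-5p array showed it well above background, and the bounds were at least 1.92-fold lower than with miR-214-3p (adjusted p = 0.0126) and at least 1.18-fold lower than in the control (adjusted p = 0.0526). Its call against miR-214-3p was made in 7 of the same 10 alternatives. CENPF, a large protein of the outer kinetochore, read 6.65 and 6.58 with miR-205-5p, 7.51 and 7.54 with miR-214-3p and 7.31 and 7.19 in the control. All 3 groups were in separate ranges, and the log2 fold change of −0.63 with miR-205-5p passed the adjusted p but not the fold limit (standard error 0.15, adjusted p = 0.0431). NDC80 and NUF2, subunits of the complex that grips microtubules, passed the adjusted p at −0.67 and −0.97 (adjusted p = 0.0449 and 0.0451), while SPC25 of the same complex had 0.24 (adjusted p = 0.653). CENPE and ZWINT had −0.57 and −0.12 (adjusted p = 0.0506 and 0.699).

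Of the kinesins and spindle assembly factors, 2 of 9 were called lower with miR-205-5p, all 9 lay below 0 and the median was −0.66. KIF4A, a kinesin on chromosome arms, read 0.56 and 0.54 with miR-205-5p, 3.42 and 3.26 with miR-214-3p and 2.06 and 3.46 in the control (−2.21, standard error 0.45, adjusted p = 0.0285). TPX2, which activates AURKA on the spindle, read 3.68 and 3.62, then 6.35 and 6.27, then 4.82 and 5.99 (−1.75, standard error 0.38, adjusted p = 0.0339). In both genes the miR-205-5p replicates nearly coincided below the rest, and the control arrays were over 1 apart. DLGAP5, HMMR and KIF2C, which act on spindle microtubules, passed the adjusted p under 2-fold (−0.86, −0.77 and −0.66, adjusted p = 0.0195, 0.0413 and 0.0388). ASPM, NUSAP1, KIF18A and KIF11, the motor that spreads the spindle poles, did not pass it and had −0.58, −0.58, −0.57 and −0.23.

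For the midzone and cytokinesis, 2 of 8 members were called lower with miR-205-5p, all 8 lay below 0 and the median was −0.61. KIF20A, a kinesin of the midzone, read −0.16 and −0.13 with miR-205-5p, 3.22 and 3.17 with miR-214-3p and 1.35 and 3.02 in the control. The control arrays were 1.66 apart and both lay above the miR-205-5p arrays (−2.33, standard error 0.52, adjusted p = 0.0362), and between the precursors it had −3.34 (adjusted p = 0.0102). The call against the control was made in 7 of the 10 alternatives and lost under normexp, with no filter and in the authors' table. RACGAP1, a subunit of centralspindlin, read 0.31 and −0.16, then 1.33 and 1.42, then 1.33 and 1.27. The miR-214-3p and control arrays nearly coincided, and the miR-205-5p arrays were below them (−1.22, standard error 0.21, adjusted p = 0.0186). Against the control, RACGAP1, KIF4A and NCAPG were each called in 8 of the 10 alternatives and lost under normexp and with no filter. KIF23, the other centralspindlin subunit, had −0.19 on its brightest probe (adjusted p = 0.473). ECT2, the activator of the small GTPase of the cleavage furrow, was lower (−0.85, adjusted p = 0.0251), while miR-214-3p gave −0.75 (adjusted p = 0.0803), and PRC1, which bundles midzone microtubules, was also lower (−0.73, adjusted p = 0.0444). ANLN, KIF14 and CEP55 had −0.49, −0.32 and −0.26 and did not pass.

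Among the members that shape chromosomes, 2 of 7 were called lower with miR-205-5p, all 7 lay below 0 and the median was −0.70. NCAPG, a subunit of the condensin that compacts mitotic chromosomes, read 0.98 and 0.67 with miR-205-5p, 1.84 and 1.89 with miR-214-3p and 2.00 and 1.81 in the control. The last 2 groups overlapped and miR-205-5p lay below them (−1.08, standard error 0.18, adjusted p = 0.0187). NCAPH, the subunit that closes the condensin ring, read −2.81 and −2.13, then −1.81 and −1.41, then −1.12 and −1.09. It was called lower against the control, but neither miR-205-5p array showed it well above background, and the bound was at least 1.42-fold (adjusted p = 0.029). This call was also made in 7 of the 10 alternatives, and was lost under normexp and both other filters. TOP2A, the topoisomerase that untangles sister chromatids, read 0.48 and 0.39, then 3.79 and 3.83, then 1.63 and 3.97. With the control arrays 2.34 apart, its log2 fold change of −2.36 was not called (standard error 0.72, adjusted p = 0.0762), whereas the precursors, whose replicates nearly coincided, gave −3.37 (10.3-fold, adjusted p = 0.0228). The condensin subunits SMC4, SMC2 and NCAPD2 had −0.18, −0.12 and −0.04 on their brightest probes.

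**Figure D3:**
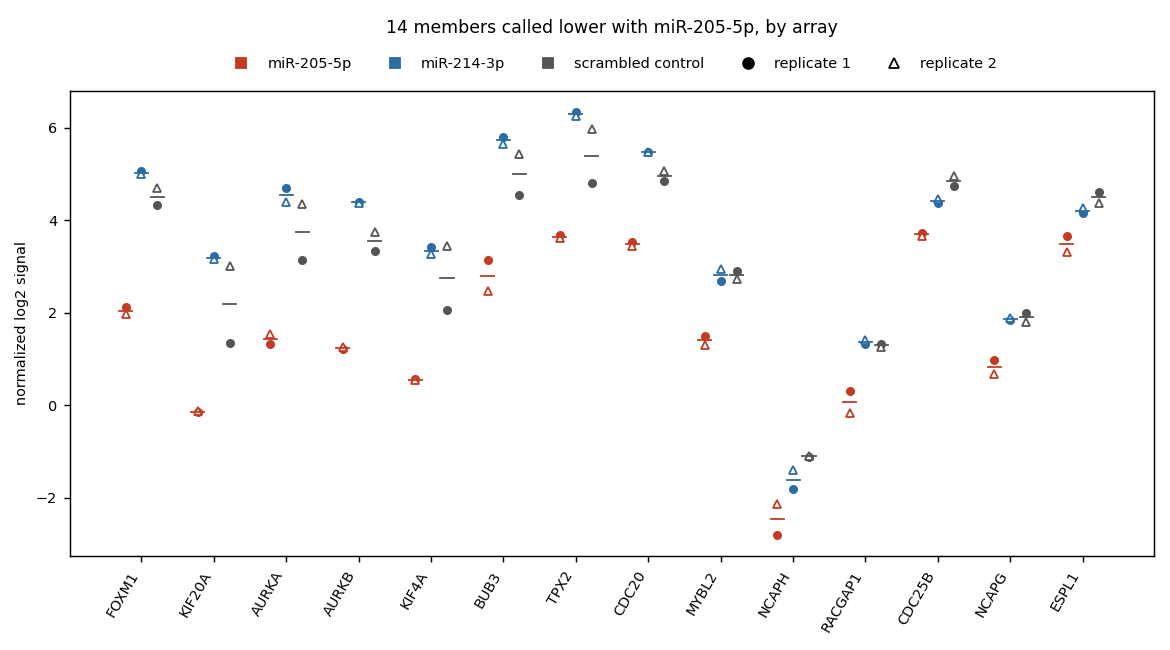
Normalized log2 signal (vertical axis) on each of the 6 arrays for the 14 members called lower with miR-205-5p, with circles for replicate 1, triangles for replicate 2 and bars for group means. In all 14 both red miR-205-5p points lie below the other 4 arrays, and in KIF20A, AURKA, KIF4A, BUB3 and TPX2 the gray control points are over 0.5 apart.

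Probes of the same gene did not always give the same change. Of the members, 41 were represented by 1 kept probe, 11 by 2 and MKI67 by 3. Among the 12 with several, 5 (41.7%) had probes over 1 apart in log2 fold change with miR-205-5p, beside 28.9% of the 2680 genes with several kept probes. These were NEK2, BUB3, KIF23, SMC2 and MKI67. In NEK2, KIF23 and SMC2 neither miR-205-5p array read the dimmer probe well above background, and in MKI67 the third probe was so on 1 of 2, so these differences rest in part on values at background. When a probe had to be well above background on each of the 6 arrays, a limit chosen after seeing the data, 7 members had several probes and BUB3 alone was over 1 apart (14.3%, beside 22.5% of 1923 genes). Dim probes included, all kept probes of the 12 members lay on the same side of 0 with miR-205-5p, and in 9 of the 12 the dimmest probe had the lower value. Between the precursors 7 of 12 (58.3%) had probes over 1 apart, beside 36.1% of genes, and with miR-214-3p it was 1 (8.33%), beside 10.1%. With the limit to probes above background on all arrays these became 3 of 7 (BUB3, MKI67 and NCAPD2, 42.9%, beside 30.7%) and 1 of 7 (BUB3, 14.3%, beside 6.03%). Probes lay on opposite sides of 0 in 3 of 12 members with miR-214-3p (BUB3, SMC2 and SMC4) and in 2 between the precursors (SMC2 and SMC4). Calls differed between probes in 2 members against the control (BUB3 and MKI67), in 0 with miR-214-3p and in 6 between the precursors (NEK2, BUB3, KIF23, NCAPD2, SMC2 and MKI67). For side of 0, dimmest probe and differing calls, no share over all genes with several probes was counted. Whether these counts are particular to the members is therefore not known. The call on the dimmer SMC2 probe has a bound of only at least 1.02-fold (limma, adjusted p = 0.0276).

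MKI67, the proliferation antigen that coats mitotic chromosomes, has 3 probes of 1 transcript. Its brightest probe read 3.34 and 3.24 with miR-205-5p, 4.29 and 4.26 with miR-214-3p and 3.78 and 4.20 in the control. The next read 1.72 and 1.62, then 3.70 and 3.62, then 2.40 and 3.51, and the third −1.35 and −2.13, then 2.08 and 1.84, then 1.45 and 1.37. Both miR-205-5p arrays were lowest on every one of them, but the size differed, with −0.70 (adjusted p = 0.0601), −1.29 (adjusted p = 0.064) and −3.15 (adjusted p = 0.00799), and the third alone was called. The third probe was well above background on 1 of 2 miR-205-5p arrays, so its size is uncertain.

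BUB3 has probes of different transcript models. The brightest, for NM_001007793, read 3.15 and 2.46 with miR-205-5p, 5.81 and 5.65 with miR-214-3p and 4.54 and 5.44 in the control. The other, for NM_004725, read 4.16 and 4.11, then 4.12 and 4.34, then 4.64 and 4.50. On the first the precursors were 2.92 apart and in separate ranges, and on the second they overlapped. The second probe had −0.43 with miR-205-5p (adjusted p = 0.125) and miR-214-3p gave −0.34 (adjusted p = 0.29), so the call of BUB3 rests on 1 probe. The brightest-probe rule also turns on this gene, since the other probe is the brightest without 1 or the other miR-214-3p array, and BUB3 is then not called.

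The second probe of KIF4A gave a larger fall than the first. It read −1.97 and −1.96 with miR-205-5p, 1.49 and 1.74 with miR-214-3p and 0.56 and 1.37 in the control, and neither miR-205-5p array showed it well above background (at least 5.99-fold lower than the control, adjusted p = 0.00828). Both KIF4A probes were called in both comparisons. KIF23 read 6.01 and 6.35, then 7.00 and 7.04, then 6.45 and 6.31 on its brighter probe, and −1.61 and −2.28, then 0.53 and 0.53, then −1.39 and 0.41 on its dimmer one. The dimmer probe was at least 4.16-fold lower than with miR-214-3p (adjusted p = 0.0311) and at least 2.05-fold lower than in the control (adjusted p = 0.142). On it the control arrays were 1.80 apart, with replicate 1 near miR-205-5p replicate 1, so the bound against the control is between means only. SMC2 read 1.32 and 1.80, then 1.53 and 1.47, then 1.87 and 1.49 on its brighter probe, where all groups overlapped. Its dimmer probe read −3.85 and −3.72, then −1.47 and −1.71, then −2.84 and −1.26, and was well above background on 3 arrays, none of them with miR-205-5p. The dimmer NEK2 probe read −1.77 and −2.00, then −1.05 and −1.16, then −1.68 and −1.15, and was not called in any comparison.

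**Figure D4:**
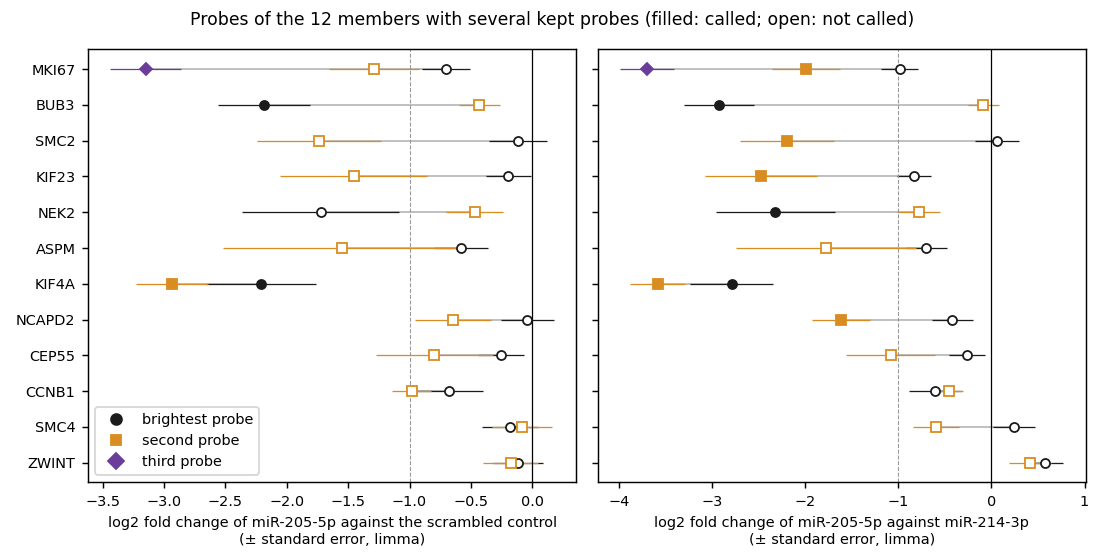
Log2 fold change with its standard error (horizontal axes) of every kept probe of the 12 members with several, against the scrambled control (left) and against miR-214-3p (right), with filled symbols for called probes. BUB3 spans −2.19 to −0.43 on the left and MKI67 −3.15 to −0.70, where the lowest MKI67 value, both NEK2 probes and the dimmer ASPM, KIF23, KIF4A and SMC2 probes rest on signals at background on 1 or both miR-205-5p arrays, while the probes of ZWINT and SMC4 nearly coincide there.

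The control replicates differed for these genes and over the whole array. Over the 53 brightest probes, the root mean square difference between replicates was 0.75 in the scrambled control, 0.35 with miR-205-5p and 0.18 with miR-214-3p. Over all 18464 kept probes it was 0.67, 0.51 and 0.34. The median normalized log2 signal of the members was 3.21 and 3.01 with miR-205-5p, 4.18 and 4.26 with miR-214-3p and 3.66 and 4.20 in the control, so control replicate 1 lay between the precursors and replicate 2 beside miR-214-3p. In 8 members control replicate 1 was lower than replicate 2 by over 1, namely NEK2, TTK, TOP2A, KIF20A, KIF4A, AURKA, TPX2 and BUB1B, and in SPC25 it was higher by over 1. Counted by kept probe, 12 of 66 (18.2%) were lower by over 1 in control replicate 1, beside 6.87% of all 18464 kept probes.

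Across the 66 member probes, the difference between the control replicates and the difference between the precursors, which share no array, had a Pearson correlation of 0.64 (Spearman 0.69). Over all 18464 kept probes the Pearson correlation was 0.49. This is a description across probes of the same 6 hybridizations, which are not independent. Why the control replicates differed was not tested. In the 39 members whose control replicates were under 0.5 apart, 38 (97.4%) lay below 0 with miR-205-5p, 9 (23.1%) were called lower and the median was −0.66. Of the 8351 genes with control replicates this close, 43% lay below 0, 7.3% were called lower and the median was 0.11. Of the 14 called members, those 9 had log2 fold changes between −2.47 and −1.02, and the other 5 (AURKA, BUB3, KIF4A, TPX2 and KIF20A) between −2.33 and −1.75. Without scrambled control replicate 2, limma called 7 members higher with miR-214-3p (AURKA, AURKB, KIF20A, KIF4A, NEK2, TOP2A and TPX2), where it called 0 with both control arrays, and 5.11% of all genes were called higher in the same fit.

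**Figure D5:**
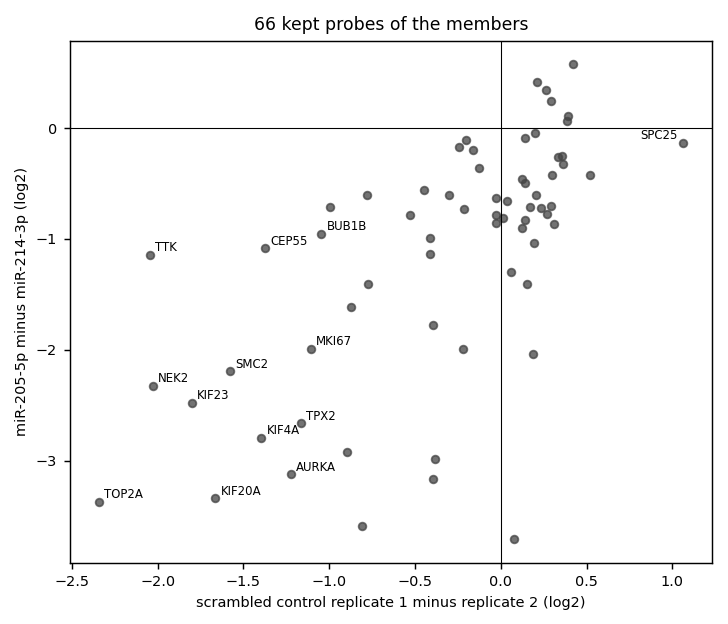
Difference between the control replicates (horizontal axis, log2, replicate 1 minus replicate 2) and difference between the precursor means (vertical axis, log2, first precursor miR-205-5p less miR-214-3p) for the 66 kept probes of the members, with genes named where the control replicates were over 1 apart. The 12 probes at the left, including TOP2A, NEK2 and KIF20A, all lie below 0 on the vertical axis.

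A wider list of other mitosis genes had a called share near that of all genes. Of its 107 genes, 105 were matched and 99 tested, of which 9 (9.09%) were called lower and 1 higher with miR-205-5p, beside 7.99% and 4.78% of all genes. The gene called higher was STAG2, a cohesin subunit (1.05, adjusted p = 0.0372), named after its value was seen. The median of the 99 was −0.26 (all genes 0.08), and 61 lay below 0 (45.4% of all genes). Both miR-205-5p arrays lay below both control arrays in 40 (28.7% of all genes) and above them in 22 (36.6%). So the called share was near that of all genes, while the signs leaned lower. By size, the called genes with all kept probes on the same side were led by GTSE1, a microtubule protein, which read −0.23 and −0.05 with miR-205-5p, 3.19 and 3.26 with miR-214-3p and 2.52 and 3.07 in the control (−2.93, adjusted p = 0.00799). LIN52, a MuvB subunit, CCNF, a cyclin of a ubiquitin ligase, and ANAPC7, a subunit of the anaphase-promoting complex, were also called. None of these last probes was well above background on a miR-205-5p array, so they have no place in the order by size, and they were at least 1.32-fold, 1.11-fold and 1.34-fold lower (adjusted p = 0.0159, 0.0116 and 0.0288). CDK5RAP2, a centrosome protein, and CDCA3, a regulator of mitotic entry, had log2 fold changes of −1.39 and −1.26 (adjusted p = 0.00925 and 0.0108), and the second CDK5RAP2 probe had −2.62. With miR-214-3p, UBE2S, a ubiquitin-conjugating enzyme of the anaphase-promoting complex, was the 1 gene called lower (−1.56, adjusted p = 0.0369), and 0 were called higher. Between the precursors 12 were called lower and 3 higher with miR-205-5p (UBE2S, ANAPC4 and CDC23, named after their values were seen), beside 11.3% and 9.18% of all genes.

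Promoters were examined because many late cell cycle genes share promoter elements. RefSeq windows of 300 bases, 250 before and 50 after the start on GRCh38.p14, were listed for 46 tested members, 37 of them with 1 start. The letters TTTGAA on either strand (TTTGAA or TTCAAA), the core of the element called CHR, stood in 28 of these 37 windows (75.7%), beside 9.42% of the 6804 tested genes with 1 start. The letters CCAAT on either strand (CCAAT or ATTGG) stood in 29 (78.4%), beside 37.9%, and both in 23 (62.2%), beside 4.17%. Among 65 other mitosis genes the shares were 41.5%, 56.9% and 26.2%. The members with TTTGAA had a median log2 fold change against the control of −0.61 (28 members, 4 called) and those without it −0.81 (9 members, 3 called), a difference that was not tested. A match of letters is a description and not a binding site. The windows of 3 called members with both sets of letters and of MYBL2, a called member with neither, are given 5′ to 3′ on the strand of the gene, with the matches in capitals. In CDC20 the matches begin 178, 100, 65 and 55 bases before the start, in ESPL1 48 and 31, and in KIF4A 58 and 34, and no matches overlap.
CDC20, chr1:43358731-43359030, + strand: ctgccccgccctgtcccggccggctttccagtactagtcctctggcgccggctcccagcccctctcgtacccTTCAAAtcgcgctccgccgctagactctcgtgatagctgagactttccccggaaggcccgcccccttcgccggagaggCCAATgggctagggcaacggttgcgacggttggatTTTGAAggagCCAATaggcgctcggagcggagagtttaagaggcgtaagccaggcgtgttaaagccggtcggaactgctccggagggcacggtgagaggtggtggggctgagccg
ESPL1, chr12:53268049-53268348, + strand: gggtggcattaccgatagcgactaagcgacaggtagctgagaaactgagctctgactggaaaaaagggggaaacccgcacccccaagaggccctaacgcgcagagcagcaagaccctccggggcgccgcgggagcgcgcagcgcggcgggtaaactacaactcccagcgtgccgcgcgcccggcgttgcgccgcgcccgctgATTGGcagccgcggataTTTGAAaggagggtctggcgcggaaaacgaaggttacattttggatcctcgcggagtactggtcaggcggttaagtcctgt
KIF4A, chrX:70289854-70290153, + strand: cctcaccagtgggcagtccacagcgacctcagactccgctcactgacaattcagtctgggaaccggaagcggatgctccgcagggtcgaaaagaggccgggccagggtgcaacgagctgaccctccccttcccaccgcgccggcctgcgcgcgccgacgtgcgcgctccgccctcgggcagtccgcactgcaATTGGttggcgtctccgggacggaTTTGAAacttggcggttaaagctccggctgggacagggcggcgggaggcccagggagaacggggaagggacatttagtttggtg
MYBL2, chr20:43666864-43667163, + strand: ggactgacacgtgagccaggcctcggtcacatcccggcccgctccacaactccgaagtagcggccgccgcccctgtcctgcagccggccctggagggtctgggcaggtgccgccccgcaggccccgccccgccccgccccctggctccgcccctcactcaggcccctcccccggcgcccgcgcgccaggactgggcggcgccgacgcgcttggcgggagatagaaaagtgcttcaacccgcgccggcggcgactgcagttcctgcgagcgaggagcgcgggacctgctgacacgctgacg

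Facts of the whole series touch these values in the following ways. Between 35.4% and 42.2% of the spots of an array were well above background, 0 were saturated, and the 75th percentile of the signal lay between 35.1 and 58.0 before it was subtracted. Precision is limited by how few arrays there are, and the fit rests on 3 residual degrees of freedom plus 2.47 borrowed across probes. Of 5 markers expected in MDA-MB-231 (VIM, CD44, CAV1, AXL and MSN), all 5 were well above background on all 6 arrays, with a summed normalized signal of 961 to 977 with miR-205-5p, 909 to 944 with miR-214-3p and 900.0 to 943 in the control. Of 5 receptor and epithelial markers that this line is known to lack or hold at a low level, ESR1 and PGR were on no array above background, but ERBB2, CDH1 and EPCAM were above it on all 6. The sum of these 5 was 39.0 to 40.4 with miR-205-5p, 15.6 to 16.7 with miR-214-3p and 20.6 to 21.1 in the control. ERBB2, the brightest of the 5, weighs most in this sum, with a mean normalized log2 signal of 4.89, 3.81 and 4.22 in that order. With miR-205-5p, ERBB2 was higher by 0.67, CDH1 by 1.96 and EPCAM by 2.40 on the log2 scale (limma, adjusted p = 0.036, 0.00799 and 0.00879). The part of these marker differences in the values of the mitosis genes was not tested.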

How the data were processed

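The authors scanned 6 Agilent SurePrint G3 Human GE arrays and extracted them with Agilent Feature Extraction 11.0, per the labels. The deposited scanner files give a linear intensity per spot (processed signal, background subtracted) with flags, and the deposited series table gives log2 values whose sorted columns are identical. Normalization in GeneSpring is named in the study's methods.

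Control and outlier spots were left out, spots of a probe were averaged, log2 was taken and the 75th percentile of each array subtracted. Of 50599 probes, 11 lacked a value on some array, and 18464 were kept because some group had both its arrays well above background. RefSeq (GRCh38.p14, names only, since the array design uses another build) named 83.3% of them, giving 11974 genes, each represented by its brightest kept probe. limma (lmFit, eBayes, all 6 arrays) tested 3 comparisons with p adjusted over the kept probes by Benjamini-Hochberg, and a call needed an adjusted p under 0.05 and 2-fold. Versions were R 4.3.3, limma 3.58.1, the package data.table (version 1.17.8), Python 3.11.15, pandas 2.3.3 and matplotlib 3.10.9, and the fit was tested on simulated data. Where neither array of a group showed a probe well above background, the bound sets the brighter mean against, per array, the higher of the probe's signal and the lowest signal well above background.

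The result of 1 marker list is not reported here. Members and lists were chosen with earlier results of these data known. Given array by array are members called in any comparison, members with probes over 1 apart against the control, and CCNB1, CENPF, MKI67 and NCAPG. Other mitosis genes are named by size, at most 6 per comparison. Alternatives covered background correction (normexp with an offset of 50 on the median signal, for want of a mean signal), normalization, filters, probe rules, tests, the replicate number as a block and each array left out. All arrays share 1 slide, so a slide block could not be fitted.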

Additional observations from a re-analysis of the deposited data

How the results depend on the processing

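Against the scrambled control, the 14 members called lower with miR-205-5p (7.99% of all genes) became 28 with scaling to the median (15.7%), 23 with no limit on fold change (11.3%), 8 under the methods' t-test unadjusted (5.78%) and 0 under it after Benjamini-Hochberg (0%), 4 with only the 4 arrays of the comparison (3.36%) and 2 with no filter (0.947%). Leaving out 1 array gave between 0 and 19 (0% to 11.6%). Against miR-214-3p, the 16 (11.3%) became 29 with no fold limit (16%), 10 under the methods' t-test after Benjamini-Hochberg (7.88%) and 9 with no filter (3.34%), and between 3 and 16 without 1 array (1.82% to 12.3%). The 0 members called higher with miR-214-3p became between 0 and 7 without 1 array. A fit without 1 array assumes that the lone array of its group varies like the others. FOXM1 and AURKB were called lower against the control under all 10 normalization, background, filter, spread and probe averaging alternatives. Scaling to the median moved the median of all genes from 0.08 to −0.31 and that of the members from −0.73 to −1.12 against the control. Between the precursors the median of the members was −0.84 with quantile normalization, −0.87 with cyclic loess, −0.95 with scaling to the median and −0.84 with the authors' table. With miR-214-3p the median of the members was −0.04 under normexp and −0.05 with scaling to the median, against 0.12. The log2 fold change of BUB3 between the precursors ran from −3.27 to 0.023 without 1 array, and it turned its sign without miR-214-3p replicate 2, where its other probe was the brightest.

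The replicate number as a block called 13 members lower against the control (7.04% of all genes), where TPX2 was lost, and 16 against miR-214-3p (10.8%). The labels give no shared batch to a number, and deviations of same-numbered arrays correlated at 0.109, 0.00819 and −0.0514, so the arrays share only a number. With 2 arrays per group, a member whose replicates are 1 apart on the log2 scale can miss a call at a fold well over 2, and a dim probe gives only a bound.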
